A study of Mus musculus with 72 samples.

Results

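The genes described here are 33 genes of the unfolded protein response, the set of genes that a cell adjusts to the load of proteins folding in its endoplasmic reticulum. They were taken by gene symbol from the 27846 genes of the sense-strand count table, and all 33 were found and had enough counts to be tested. RNA was measured by poly(A) selected, stranded sequencing of whole liver from male and female C57bl6 mice, 8 to 16 weeks old, kept on a 12:12 h light and dark cycle. All groups ate a diet with 42% of its energy as fat from the first week of the paradigm, so the controls carried the diet too. One set of each sex was held as controls and the other under chronic circadian misalignment, whose schedule the labels do not give. Livers were collected at 0, 4, 8, 12, 16 and 20 h, with 3 mice for each sex, treatment and time, which gave 24 groups and 72 libraries, or 18 livers per sex and treatment. The labels do not tie these clock times to the lights, so every time below is the stated hour only.

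The endoplasmic reticulum is where secreted and membrane proteins fold, and hepatocytes, which secrete most plasma proteins, carry a large one. When unfolded proteins build up, 3 membrane sensors respond: ATF6, which is cut to release a transcription factor; IRE1, encoded by Ern1, which splices Xbp1 mRNA; and PERK, encoded by Eif2ak3, which slows translation and favours that of ATF4. Their targets are chaperones and folding enzymes, the machinery that returns misfolded proteins to the cytosol for degradation, and, downstream of ATF4, genes of amino acid supply and of the stress factor CHOP, encoded by Ddit3. In liver this response is known to follow feeding and the time of day.

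The members fall into 7 roles: 7 luminal chaperones and exchange factors, 5 disulfide isomerases with the partner protein Creld2, 4 co-chaperones, 6 factors of degradation, the translocon subunit Sec61b, 5 sensors and transcription factors, and 5 targets of the PERK, ATF4 and CHOP arm. Per kilobase of exon, P4hb, a disulfide isomerase, had the highest level in control males at 636 ± 50.5 CPM per kb (CPM, counts scaled to the size of each library; SD, n = 18 livers over all times). Calr, the lectin chaperone calreticulin, followed at 222 ± 48.5 CPM per kb. Herpud1 had 185 ± 57.2 CPM per kb, Hspa5 166 ± 69.9 and Hsp90b1 162 ± 38.9, and these 3 neighbours differed by less than their spread. Hspa5 encodes BiP, the main HSP70 chaperone of the lumen, and Hsp90b1 the HSP90 of the lumen, also known as GRP94. At the lower end stood Derl3, a channel component of degradation, at 0.729 ± 0.47 CPM per kb, and Asns, asparagine synthetase, at 0.472 ± 0.572 CPM per kb. Hspa5 rested on 4334 to 17052 counts in a library, Derl3 on 3 to 48 and Asns on 0 to 98, so single values of the last 2 are imprecise.

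Promoter stretches are shown because many chaperone members are textbook targets of ATF6 and XBP1, which bind the endoplasmic reticulum stress element (ERSE), and because these members share a daily rhythm in control males. That element is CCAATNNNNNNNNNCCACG, searched on both strands from 250 bases before to 50 bases after the start of each RefSeq gene. Windows were listed for 28 of the 33 members. The element lay in 9 of these 28 windows, against 0.119% of the 32851 windows in the table. The sequences below run 5′ to 3′ on the gene's strand from RefSeq on GRCm38.p6, and capitals mark the element.
Hspa5: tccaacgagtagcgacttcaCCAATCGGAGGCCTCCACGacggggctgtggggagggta
Canx: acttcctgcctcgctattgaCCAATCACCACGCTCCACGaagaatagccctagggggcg
Calr: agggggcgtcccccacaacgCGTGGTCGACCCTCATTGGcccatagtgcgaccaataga
Pdia6: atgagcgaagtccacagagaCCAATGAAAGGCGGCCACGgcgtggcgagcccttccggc
Creld2: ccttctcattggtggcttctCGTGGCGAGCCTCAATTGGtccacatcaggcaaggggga
Syvn1: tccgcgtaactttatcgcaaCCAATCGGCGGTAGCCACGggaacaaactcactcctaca
Dnajc3: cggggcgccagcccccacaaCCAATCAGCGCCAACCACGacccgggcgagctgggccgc
Derl3: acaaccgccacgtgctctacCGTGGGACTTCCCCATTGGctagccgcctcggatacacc
Hsp90b1: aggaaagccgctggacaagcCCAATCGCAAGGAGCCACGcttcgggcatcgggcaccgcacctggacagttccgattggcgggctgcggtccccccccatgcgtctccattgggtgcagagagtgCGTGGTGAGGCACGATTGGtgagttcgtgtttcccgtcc

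These stretches lie at chr2:34772005-34772063 on the plus strand for Hspa5, chr11:50325780-50325838 on the minus strand for Canx, chr8:84847055-84847113 on the minus strand for Calr and chr12:17266471-17266529 on the plus strand for Pdia6. Those of Creld2, Syvn1 and Dnajc3 lie on the plus strand at chr15:88819500-88819558, chr19:6046512-6046570 and chr14:118937807-118937865. That of Derl3 is chr10:75893222-75893280 on the plus strand, and that of Hsp90b1, which holds 2 copies, is chr10:86705513-86705676 on the minus strand. In Hspa5 the element spans bases -65 to -47 from the start. Read on the gene's strand, it stood in reverse in Calr, Creld2, Derl3 and the second copy of Hsp90b1. Of these 9 genes, 7 passed the rhythm test in control males and Dnajc3 and Derl3 did not, where 10.8% of all genes tested passed. Members whose window lacked the element passed too, namely Pdia3, Pdia4, Dnajb9, Dnajb11, Sdf2l1, Xbp1, Atf4, Ern1 and Eif2ak3. Hyou1, Manf and Hspa13 passed and had no window listed. Whether the element goes with the rhythm was not tested.

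Of the other motifs searched on both strands, the related ERSE-II, ATTGGNCCACG, lay in 2 of 28 windows, those of Herpud1 and Dnajb11, against 0.0365% of all windows. TGACGTGG, bound by XBP1, lay in 0 of 28 against 0.676%, and CACGTG, the E-box bound by the core clock activators, in 3 of 28 against 7.15%. TTATGTAA, the D-box, lay in 1 of 28 against 0.938%. The amino acid response element TGATGNAA, which ATF4 binds, lay in 4 of 28 against 3.97%, namely in Herpud1, Trib3, Chac1 and Asns. Chac1 encodes an enzyme that degrades glutathione, and its stretch lies at chr2:119351029-119351076 on the plus strand with the element in capitals.
Chac1: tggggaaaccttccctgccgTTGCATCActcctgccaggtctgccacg

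Library totals were nearly equal, 11551524 to 12529963 counts, and do not show the depth before deposit. The 7 hepatocyte markers summed to at least 70745 CPM in every liver. Of 15 listed pancreatic acinar markers 8 were found, and these summed to 18.2 CPM at most. Alb held most counts of the first list and Cela1 of the second. Control males at 0 h spread the most among themselves: averaged over the 33 members on the log2 scale, replicate 3 stood 0.37 above its group mean and replicate 2 at -0.38. In whole liver, fewer cells of a type and less RNA per cell cannot be told apart. The p-values of the fits rest on the spread of livers around the fitted values. In the fit with a mean for each group (48 residual degrees of freedom), this is the spread among the 3 livers of a group. In the fit of a 24 h curve (60 residual degrees of freedom), it also holds the distance of group means from the curve. Fits on a time read from clock genes place each liver at its own time and do not use these groups.

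In control males, RNA of the chaperone members rose and fell once a day with a peak near the 0 h collection. Of the 33 members, 19 were rhythmic at an adjusted p under 0.05 (edgeR quasi-likelihood test of a 24 h cosine and sine, Benjamini-Hochberg adjustment over all genes tested), where 10.8% of the 15066 genes tested passed. All 7 luminal chaperones passed, as did 4 of 5 isomerases and partners, 3 of 4 co-chaperones, 1 of 6 degradation factors and 4 of 5 sensors and transcription factors. None of the 5 targets of the PERK, ATF4 and CHOP arm and not Sec61b passed. The median amplitude, from mean to peak, was 0.30 on the log2 scale over the 33 members and 0.17 over all genes tested. The peaks of the 19 fell between 21.1 and 23.99 h, with a circular mean of 22.5 h.

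Hspa5 in control males read 1151, 825 and 1542 CPM in the 3 livers of 0 h and 358, 394 and 431 CPM in those of 12 h. At 4 h it was 534, 656 and 610 CPM, at 8 h 442, 543 and 493 CPM, at 16 h 624, 832 and 634 CPM and at 20 h 853, 749 and 928 CPM. The livers of 0 h were all higher than those of 12 h, and the livers of 16 and 20 h overlapped. Its amplitude was 0.69 ± 0.11 (SE) on the log2 scale with a peak at 22.4 h (adjusted p = 2.5e-05, edgeR quasi-likelihood test), a fitted peak-to-trough ratio of 2.59.

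Manf, a secreted factor of the lumen that binds BiP, swung in the same hours. It read 133, 98.8 and 171 CPM at 0 h and 31.6, 36.7 and 40.8 CPM at 12 h, with no overlap. Its amplitude was 0.84 ± 0.13 at 22.5 h. Hyou1, the large HSP70-like exchange factor for BiP, had the largest amplitude of the 19 at 0.89 ± 0.15. Its livers read 274, 196 and 445 CPM at 0 h and 61.7, 70.3 and 79.5 CPM at 12 h. Among the co-chaperones, Sdf2l1, which keeps BiP clients from clumping, had an amplitude of 0.71 ± 0.16, and Dnajb9, a J-domain partner of BiP, one of 0.53 ± 0.13.

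The abundant lectin chaperones and isomerases moved less. Calr read 845, 658 and 992 CPM at 0 h against 468, 474 and 414 CPM at 12 h, an amplitude of 0.34 ± 0.07. Pdia4, a disulfide isomerase, read 261, 198 and 323 CPM at 0 h and 113, 128 and 133 CPM at 12 h, an amplitude of 0.44 ± 0.08. Canx, the membrane-bound lectin chaperone calnexin, had the smallest amplitude of the 19, 0.20 ± 0.05. P4hb had an amplitude of 0.06 ± 0.05 and did not pass the test, as the only isomerase.

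Of the sensors, Eif2ak3 had an amplitude of 0.59 ± 0.11 and Ern1 one of 0.50 ± 0.13, both called, while Atf6 had 0.21 ± 0.07 (adjusted p = 0.0996, edgeR). Xbp1 read 194, 201 and 222 CPM at 0 h and 158, 142 and 140 CPM at 12 h. Those 2 sets did not overlap, and the amplitude was 0.24 ± 0.06 at 23.99 h (adjusted p = 0.0212, edgeR). Whether its mRNA was spliced by IRE1 was not analysed here. Atf4 read 95.9, 129 and 111 CPM at 0 h against 75.2, 71.2 and 69.0 CPM at 12 h, with an amplitude of 0.23 ± 0.06. Of the degradation factors, Syvn1, the ubiquitin ligase HRD1, was called at 0.62 ± 0.13. Its partner Sel1l had 0.25 ± 0.08 (adjusted p = 0.107, edgeR).

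Single livers weigh on some of these calls. Without replicate 3 of the control males at 0 h, the count in control males was 14, and Canx, Pdia3, Pdia6 and Sdf2l1 were among those that no longer passed. With replicate 1 left out at every time the count was 8, and with replicate 3 left out 6. Hspa5, Hyou1, Manf, Pdia4 and Eif2ak3 passed with any single library left out. The call of Ern1 was lost with any 1 of 6 libraries left out, that of Atf4 with any 1 of 5 and that of Xbp1 with any 1 of 2.

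**Figure D1:**
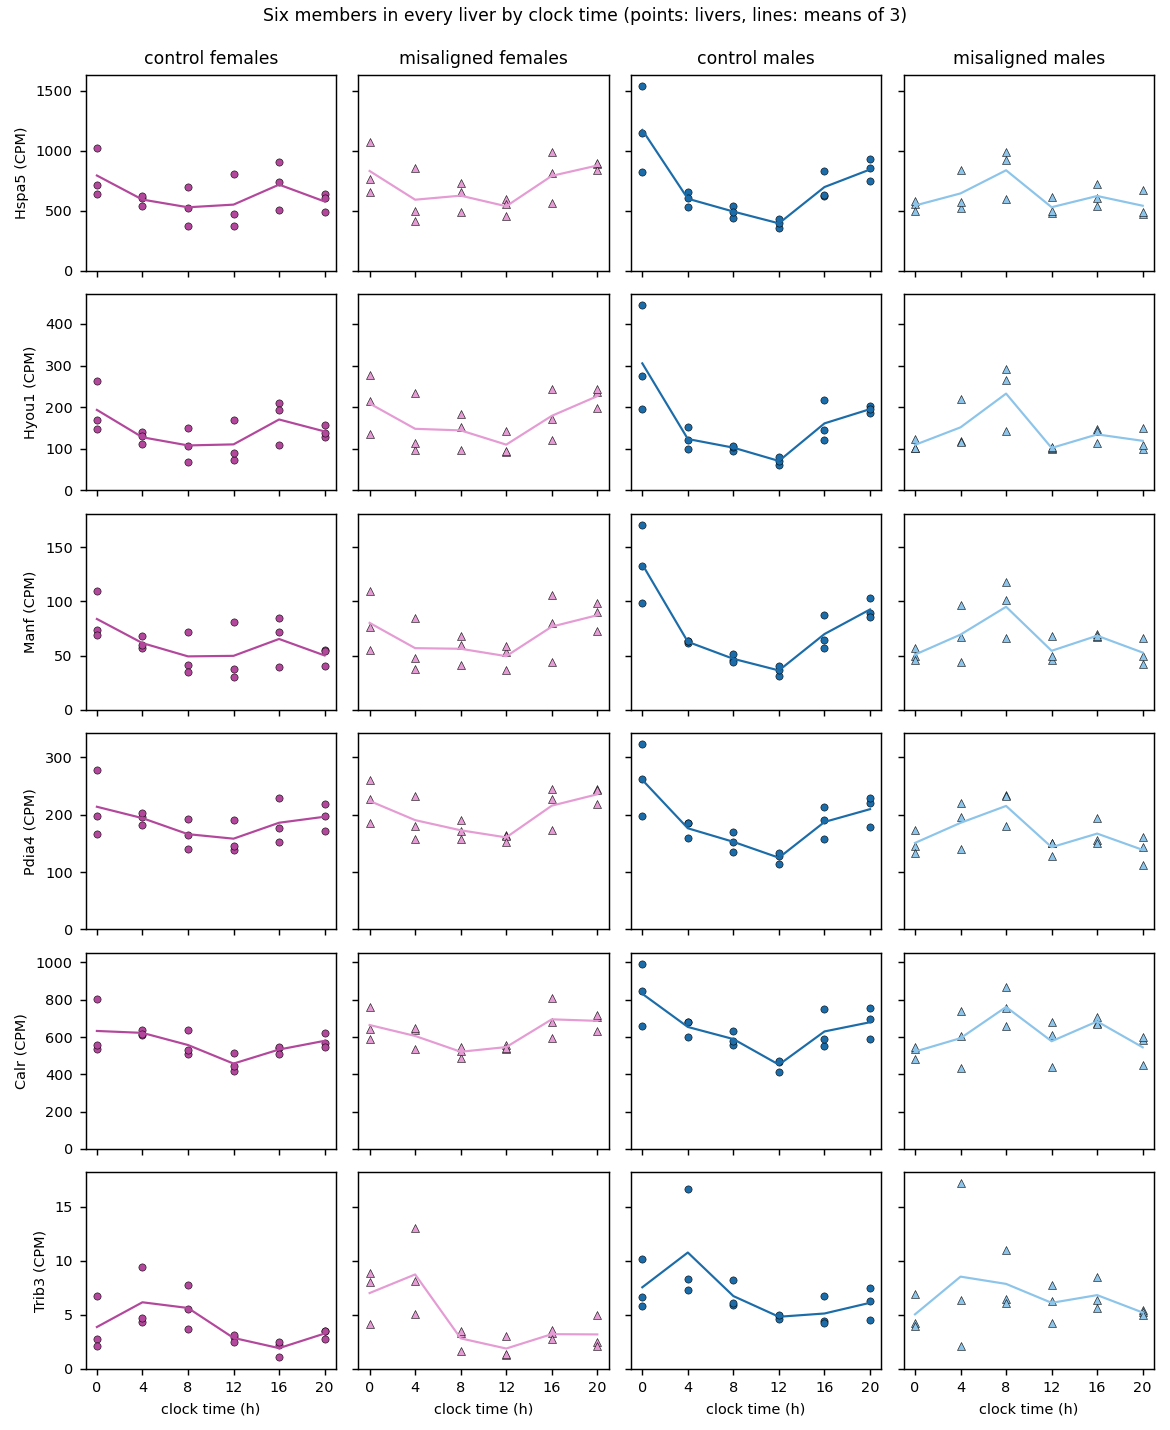
Level in CPM (vertical axis, from 0) of Hspa5, Hyou1, Manf, Pdia4, Calr and Trib3 in each liver against clock time in hours, with 1 column of panels for each of the 4 sets of livers, 1 point per liver and lines through the means of 3. In control males Hspa5 runs from 358 CPM at 12 h to 1542 CPM at 0 h, and in misaligned males its highest liver, 987 CPM, is at 8 h.

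In control females the chaperones did not pass the test of a rhythm. Trib3 alone passed, against 12% of all genes tested (edgeR, adjusted p under 0.05). At an unadjusted p under 0.05 stood 7 of 33 members and 25.8% of all genes. Hspa5 in control females read 711, 642 and 1025 CPM at 0 h and 375, 805 and 472 CPM at 12 h, sets that overlap. Its amplitude was 0.20 ± 0.11 (adjusted p = 0.425, edgeR). Manf read 73.3, 68.8 and 109 CPM at 0 h and 30.6, 81.3 and 37.6 CPM at 12 h, where replicate 2 stood above the other livers of 12 h in both genes. The median amplitude over the 33 was 0.18, near the 0.17 of all genes tested. Of the 33 members, 28 had a lower fitted amplitude in control females than in control males. The share of all genes that did so is not given here, and this difference between the sexes within controls was not tested.

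Trib3, a pseudokinase induced by ATF4 and CHOP, had its peak on another hour than the chaperones. In control females it read 9.38, 4.36 and 4.71 CPM at 4 h and 1.05, 2.14 and 2.48 CPM at 16 h, with no overlap. Its amplitude was 0.76 ± 0.20 at 4.6 h (adjusted p = 0.0151, edgeR), and 1 liver of 4 h, replicate 1, was the highest of all. Without that liver the amplitude was 0.64 (adjusted p = 0.0877). In misaligned females Trib3 had an amplitude of 1.01 ± 0.20 at 1.69 h (adjusted p = 0.00051, edgeR), with 13.0, 8.16 and 5.01 CPM at 4 h and 2.98, 1.25 and 1.33 CPM at 12 h. In control males its amplitude was 0.53 ± 0.17 at 2.96 h and missed the threshold (adjusted p = 0.0864).

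**Figure D2:**
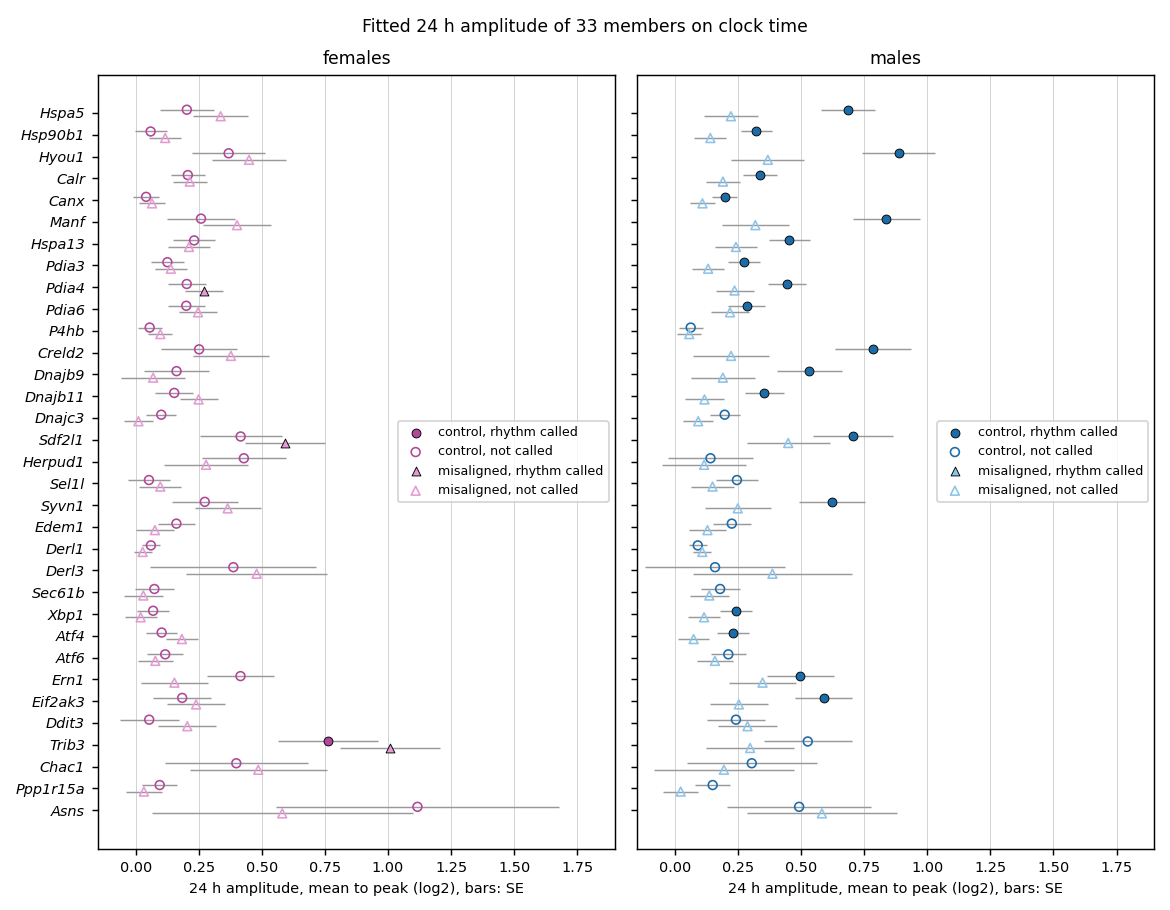
Fitted 24 h amplitude (log2, from mean to peak, bars are standard errors) of all 33 members on clock time, females in the left panel and males in the right one, circles for controls and triangles for misaligned mice, filled where the rhythm passed the test. Filled points in control males run from 0.20 (Canx) to 0.89 (Hyou1).

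In misaligned males the peak of the chaperones was no longer at 0 h. No member was rhythmic on clock time (0 of 33 by edgeR, limma-voom and DESeq2), where 0.00664% of all genes tested passed. At an unadjusted p under 0.05 were 8 members and 7.85% of all genes. Hspa5 in misaligned males read 554, 497 and 578 CPM at 0 h, all below the 825 to 1542 CPM of the control males. At 8 h it read 987, 924 and 600 CPM, all above the 442, 543 and 493 CPM of the controls. At 12 h it read 477, 494 and 615 CPM, and at 20 h 469, 485 and 669 CPM, below the 749 to 928 CPM of the controls.

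The change of the rhythm in males passed the test for 20 of 33 members, against 9.23% of all genes tested. The test asks whether the cosine and sine terms differ, so a moved peak and a changed amplitude both count. Among the 20, 19 had a lower fitted amplitude in misaligned than in control males. The share with a lower amplitude among all genes called for this change is not given here. Of these 19, Pdia6 at -0.066 ± 0.104, Atf6 at -0.053 ± 0.099 and Ern1 at -0.15 ± 0.19 lay within their errors. Over all genes tested, 10.8% were rhythmic in control males and 0.00664% in misaligned males. Fewer rhythms in misaligned males were thus not particular to the members. For Derl1, a membrane factor of degradation, the amplitude difference was 0.018 ± 0.051, within its error, and it turned sign with any 1 of 3 libraries left out, down to -0.0094 without replicate 2 of the control males at 16 h. All 7 luminal chaperones were among the 20, with 4 of 5 isomerases and partners, 3 of 4 co-chaperones, 2 of 6 degradation factors and 4 of 5 sensors and transcription factors. Of these sensors, Atf6 lost its call with any 1 of 13 libraries left out. For Hspa5 the amplitude was lower by 0.46 ± 0.15, from 0.69 to 0.22 (adjusted p = 0.00027, edgeR), and for Manf it was lower by 0.52 ± 0.19 (adjusted p = 0.00015). For Pdia4 it was lower by 0.21 ± 0.11, for Hyou1 by 0.52 ± 0.21 and for Hspa13, an HSP70-like ATPase of the endoplasmic reticulum, by 0.21 ± 0.12. All 19 members called in control males had their fitted peak in misaligned males more than 6 h away from it, with a circular mean of 8.59 h. These peaks rest on amplitudes that did not pass. The share among all genes rhythmic in control males is not given here. Core clock genes were shifted too. The time read from them lay more than 4 h from the clock time in 15 of 18 misaligned male livers. With replicate 1 left out at every time, 3 members passed in place of 20.

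The male difference was counted by sign at each hour, with no test of whether the members share their hours. At 0 h, 31 of 33 members were lower in misaligned males, with a median log2 difference of -0.56, and at 20 h 29 were lower, with a median of -0.32. At 8 h, 28 were higher with a median of 0.35, and at 12 h 29 were higher with a median of 0.24. The medians were 0.06 at 4 h and -0.02 at 16 h, and the medians of all genes tested lay between -0.02 and 0.02 at every hour in both sexes. Hyou1 had a log2 difference of -1.48 ± 0.32 at 0 h and 1.18 ± 0.32 at 8 h, and Sdf2l1 one of -2.02 ± 0.36 at 0 h. Other members had other hours: Eif2ak3 was farthest from 0 at 20 h with -1.06 ± 0.28, Edem1 at 16 h with -0.42 ± 0.18, and Xbp1 stood at 0.0053 ± 0.15 at 8 h. A test that assumes no curve, with 5 degrees of freedom, asked whether the difference was equal at all 6 times. It passed for 16 members in males, against 9.26% of all genes tested, and 15 of the 16 were also called by the rhythm change. It passed for 0 members in females by edgeR, limma-voom and DESeq2, against 0.0332% of all genes tested, and unadjusted for 1 member and 5.06% of all genes. The male count was 0 with replicate 1 left out at every time.

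**Figure D3:**
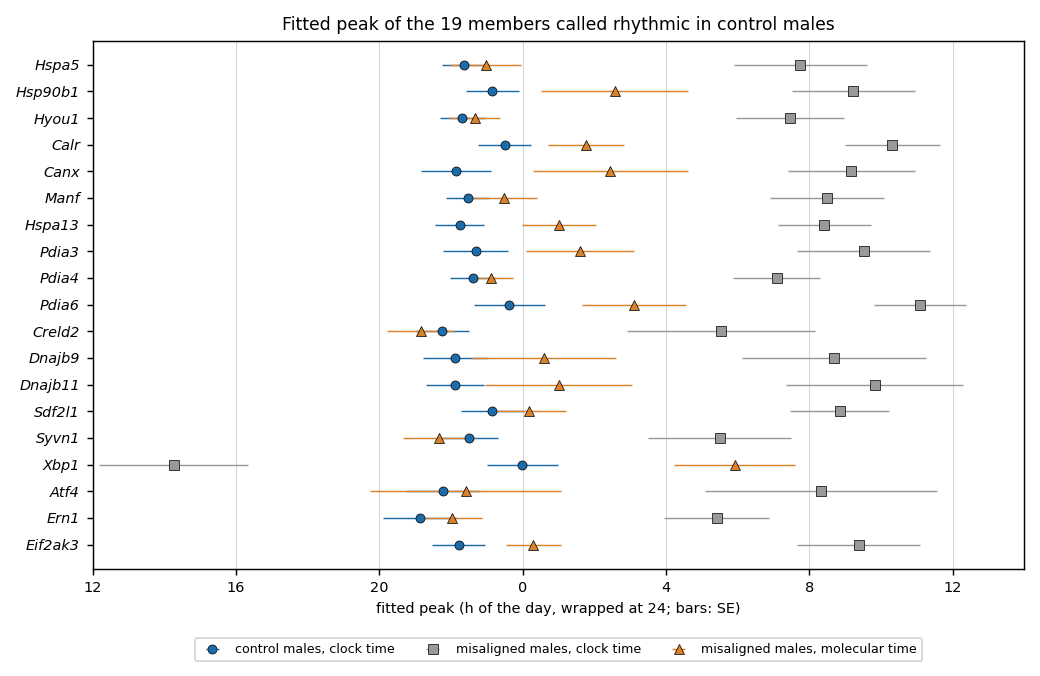
Fitted peak in hours of the day (axis wrapped, bars are standard errors) of the 19 members called rhythmic in control males: control males on clock time (circles), misaligned males on clock time (squares) and misaligned males on a time read from their clock genes (triangles). The control peaks lie between 21.1 and 23.99 h, and the peaks of misaligned males on clock time all lie more than 6 h from them.

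In misaligned females 3 of 33 members were rhythmic, against 7.69% of all genes tested and so near the background. They were the co-chaperone Sdf2l1, the isomerase Pdia4 and Trib3. Unadjusted, 12 of 33 members and 20.9% of all genes had a p under 0.05. Pdia4 in misaligned females read 245, 218 and 243 CPM at 20 h and 165, 163 and 153 CPM at 12 h, with no overlap, and had an amplitude of 0.27 ± 0.08 at 21.2 h (adjusted p = 0.0386, edgeR). Sdf2l1 read 15.4, 16.0 and 15.6 CPM at 20 h and 6.47, 8.78 and 9.05 CPM at 12 h, with an amplitude of 0.59 ± 0.16 at 21.3 h (adjusted p = 0.0351). Hspa5 read 889, 841 and 899 CPM at 20 h against 639, 603 and 489 CPM in control females. Its amplitude was 0.34 ± 0.11 (adjusted p = 0.0907, edgeR). The rhythm change in females passed for 0 of 33 members by edgeR, limma-voom and DESeq2, against 0.192% of all genes tested, and unadjusted for 0 members and 8.2% of all genes. Single libraries decide part of this: Pdia4 did not pass with any 1 of 13 libraries left out, and Sdf2l1 with any 1 of 9.

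Whether misalignment changed the rhythm differently in the sexes was tested directly, and 9 of 33 members passed, against 1.73% of all genes tested. They were 6 of the 7 luminal chaperones (Hspa5, Hsp90b1, Hyou1, Calr, Manf and Hspa13), the isomerases Pdia4 and Pdia6, and the sensor Eif2ak3. For Manf the amplitude change was 0.14 ± 0.19 (SE) in females and -0.52 ± 0.19 in males (adjusted p = 0.00905, edgeR). For Hspa5 it was 0.13 ± 0.15 in females and -0.46 ± 0.15 in males (adjusted p = 0.0138). For Pdia4 it was 0.07 ± 0.11 and -0.21 ± 0.11 (adjusted p = 0.0103). In 8 of the 9 the fitted amplitude was higher in misaligned than in control females, while over all 33 members it was lower in 12. The exception was Hspa13, at -0.02. Each of the 9 female changes lay within its standard error. The 9 were picked by a test that sets the female change against the male one, so this count does not show a rise in females. No single library ended the call of Hspa5, Manf or Pdia4, while that of Hspa13 was lost with any 1 of 35 libraries left out and that of Eif2ak3 with any 1 of 39. Without replicate 3 of the control males at 0 h the count was 4. It was 0, 0 and 2 with replicates 1, 2 and 3 left out at every time.

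Because the misaligned males differed from controls in clock gene phase, the members were also placed on a molecular time, read for each liver from 14 core clock genes that were rhythmic in both control groups. None of these is a member. In misaligned males 15 of 18 livers stood more than 4 h from their clock time, and in misaligned females 2 of 18. These offsets were spread widely: over the 18 misaligned males they had a circular mean of -7.34 h but a concentration of only 0.516 (1 is full agreement), against 0.932 to 0.966 in the other sets. The livers of 4 h alone stood at molecular times of 14.9, 5.08 and 17.6 h. On molecular time 11 of 33 members were rhythmic in misaligned males (Calr, Pdia6, Sdf2l1, Pdia4, Atf6, Pdia3, Eif2ak3, Hyou1, Manf, Trib3 and Hspa13), against 11.5% of all genes tested. Of these, 9 were also called in control males on clock time. Pdia4 had an amplitude of 0.41 ± 0.09 at 23.1 h and Calr one of 0.27 ± 0.06 at 1.76 h. Hspa5 had 0.37 ± 0.14 at 23.0 h and did not pass (adjusted p = 0.105, edgeR). The fitted peaks of the 19 control-male members lay at a circular mean of 0.347 h, and none was more than 6 h from that in control males on clock time. The farthest was Xbp1 at 5.93 h. The share for all genes rhythmic in control males is not given here.

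The change of rhythm on molecular time passed for 0 members in males (edgeR), where 0% of all genes tested passed, and for 0 in females against 0.00664%. Unadjusted, 3 members against 4.7% of all genes passed in males, and 0 against 5.15% in females. The sex difference of that change passed for 0 members against 0%, and unadjusted for 2 against 5.19%. These 3 tests were not run with another tool. Only 1 of the 18 misaligned male livers had a molecular time between 18 and 2 h, the hours of the control peak, against 6 of 18 control males. That liver, replicate 3 of 0 h at a molecular time of 22.6 h, held 578 CPM of Hspa5. The peaks on molecular time in misaligned males thus rest mostly on livers at other hours. In 24 of 33 members the fitted amplitude was still lower in misaligned than in control males on that axis. The share of all genes with a lower amplitude there is not given here. In the other sets, 23 members passed in control males against 12.4%, 3 in control females against 13.7% and 6 in misaligned females against 10.7% of all genes tested. The count of misaligned males was 3 with replicate 1 and 2 with replicate 2 left out at every time.

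**Figure D4:**
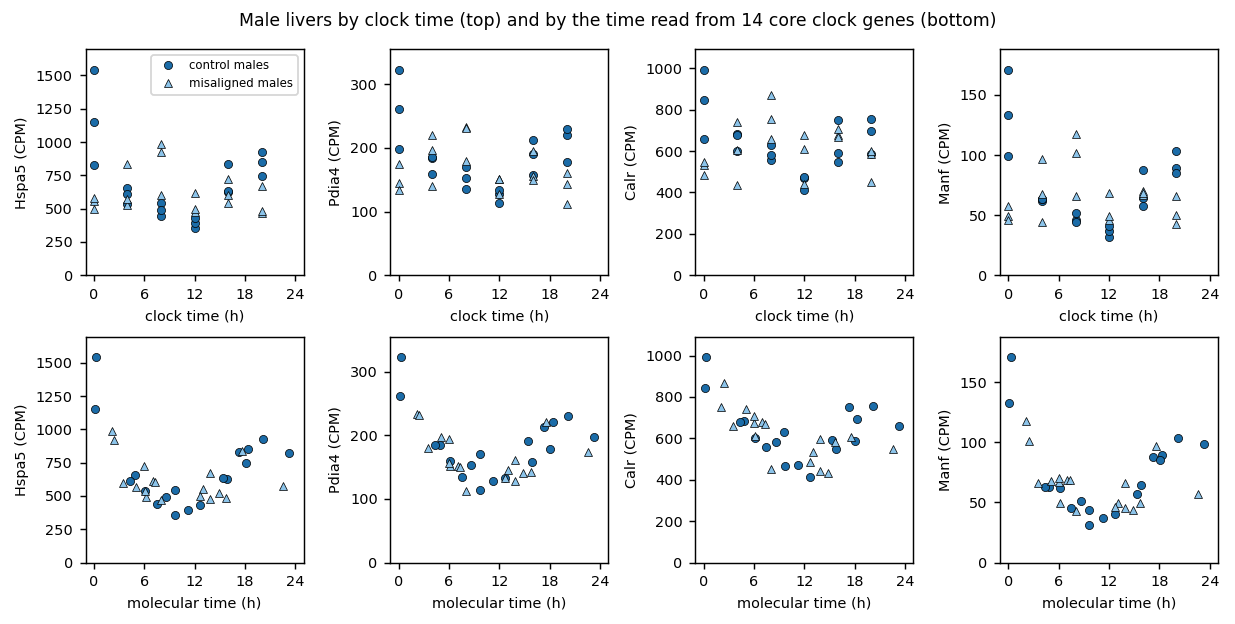
Level in each male liver (CPM, vertical axis from 0) of Hspa5, Pdia4, Calr and Manf against clock time (upper panels) and molecular time (lower panels) in hours, circles for controls and triangles for misaligned males. In the lower panels 1 misaligned liver lies between 18 and 2 h, and the 2 misaligned livers highest in Hspa5, 987 and 924 CPM, lie at 2.13 and 2.42 h.

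Reads in introns come mostly from RNA not yet spliced, and gave a second readout of 25 members. In control males 5 of the 25 were rhythmic in intron counts (Hspa5, Hyou1, Calr, Pdia4 and Eif2ak3), against 2.73% of the 8725 genes tested. The intron amplitude of Hspa5 was 0.63 ± 0.11 at 22.6 h, beside 0.69 ± 0.11 at 22.4 h in its gene counts. For Pdia4 it was 0.58 ± 0.12 at 23.3 h and for Hyou1 0.83 ± 0.17 at 22.0 h. The change in males passed for Hspa5, Hyou1, Pdia4 and Eif2ak3, against 2.14%, and its sex difference for Hspa5, Pdia4 and Eif2ak3, against 0.596%. In misaligned females 1 of the 25, Pdia4, passed, against 2.41%. Unadjusted, 11 of the 25 and 13.4% of all genes had a p under 0.05 there (edgeR). No member passed in control females (0 by edgeR and limma-voom) against 4.45%, or in misaligned males (0 by both) against 0.0229%. The change in females passed for 0 members (edgeR), against 0%. Unadjusted, the counts of these 3 tests were 0, 4 and 4 of 25, beside 16.3%, 7.03% and 6.59% of all genes. Manf and Xbp1 each had 1 intron counted, and Atf4 had 0. Xbp1 was among the 25, but Manf, Atf4, Hspa13, Derl3, Ddit3, Trib3, Chac1 and Asns were not, so these have no intron test.

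A component of 12 h, which has been described for genes of this response in mouse liver, was looked for beside the 24 h terms. It passed for 0 of 33 members in each set of livers (edgeR and limma-voom). The counts at an unadjusted p under 0.05 were 0 in control females, 3 in control males, 1 in misaligned females and 2 in misaligned males, beside 5.42%, 4.8%, 3.3% and 2% of all genes. Of all genes tested, 0.073% passed in control females, and 0%, 0% and 0% in the other sets in that order. The smallest p among members was that of Asns in control males, at a 12 h amplitude of 0.88 ± 0.27 (adjusted p = 0.932, edgeR). Hyou1 in misaligned males had a 12 h amplitude of 0.39 ± 0.14 (adjusted p = 1). With 6 times a day, a 12 h cycle is seen at only 3 points.

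Averaged over the 6 times, the level of the members did not pass a change with misalignment in either sex. In females 0 of 33 passed by edgeR, limma-voom and DESeq2, against 0.00664% of all genes tested, while 9 members and 6.68% of all genes had an unadjusted p under 0.05. The median log2 difference over the members was 0.13, with 30 of 33 above 0, and it was 0.00 over all genes tested. Sdf2l1 read 12.2 ± 4.31 CPM in misaligned and 9.38 ± 4.07 CPM in control females (SD, n = 18 livers over all times), a log2 difference of 0.37 ± 0.15 (adjusted p = 0.673, edgeR). In males 0 of 33 passed by the same 3 tools, against 0%, and the median difference was -0.05. Unadjusted, 1 member and 6.19% of all genes passed. The difference between the sexes in this mean change passed for 0 members by the same tools, against 0%, with 8 members and 5.7% of all genes under 0.05 unadjusted.

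Mean levels over the 6 times differed between the sexes for some members. In controls 8 of 33 (24.2%) passed, against 32.9% of all genes tested, and 7 of the 8 were lower in females. Asns, the amino acid supply gene, read 0.32 ± 0.255 CPM in control females and 1.29 ± 1.56 CPM in control males, a log2 difference of -2.01 ± 0.45 (adjusted p = 7.0e-05, edgeR). Trib3 read 3.93 ± 2.15 CPM in females and 6.84 ± 2.93 CPM in males, lower in females at all 6 times. Edem1, a lectin that hands glycoproteins to degradation, was the member higher in females, at 192 ± 20.5 against 154 ± 39.6 CPM. Pdia6, P4hb, Derl1, Dnajb11 and Calr were lower in females by 0.23, 0.16, 0.12, 0.22 and 0.17 on the log2 scale. Marker sums differed between the sexes too, and their part in these differences was not tested. In control females and control males the median summed CPM was 106125 and 84797 for hepatocyte markers, 537 and 395 for 8 Kupffer cell markers, 455 and 849 for 8 stellate cell markers and 105 and 184 for 5 cholangiocyte markers. In misaligned mice each of these medians lay on the same side. The median of 9 blood cell markers changed side, at 356 in control females and 213 in control males but 145 in misaligned females and 242 in misaligned males. Alb alone had a median of 76450 CPM over all 72 libraries, so the hepatocyte sum was mostly that of 1 gene. Of the cholangiocyte markers, Spp1 held 130733 counts over all 72 libraries, so their sum, too, was mostly that of 1 gene. Krt19, Krt7, Epcam and Sox9 held 1875, 1396, 2648 and 3170. Of 5 listed adipocyte markers, Adipoq, Plin1, Lep and Retn held 16, 6, 1 and 97 counts over all 72 libraries, against 72887 for Cidec, which made up nearly all of their sum. In misaligned mice 10 members passed, against 37.7% of all genes tested. Asns, Trib3, P4hb, Derl1 and Edem1 were among them with the same direction, and Atf6 and Eif2ak3 were lower in females. Hsp90b1, Pdia4 and Sdf2l1 were higher in misaligned females than in misaligned males, by 0.25, 0.26 and 0.39 on the log2 scale. In controls their differences did not pass, and for Sdf2l1 that difference was -0.32 ± 0.15. The direct test above, of whether the mean change differed between the sexes, passed for 0 members.

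**Figure D5:**
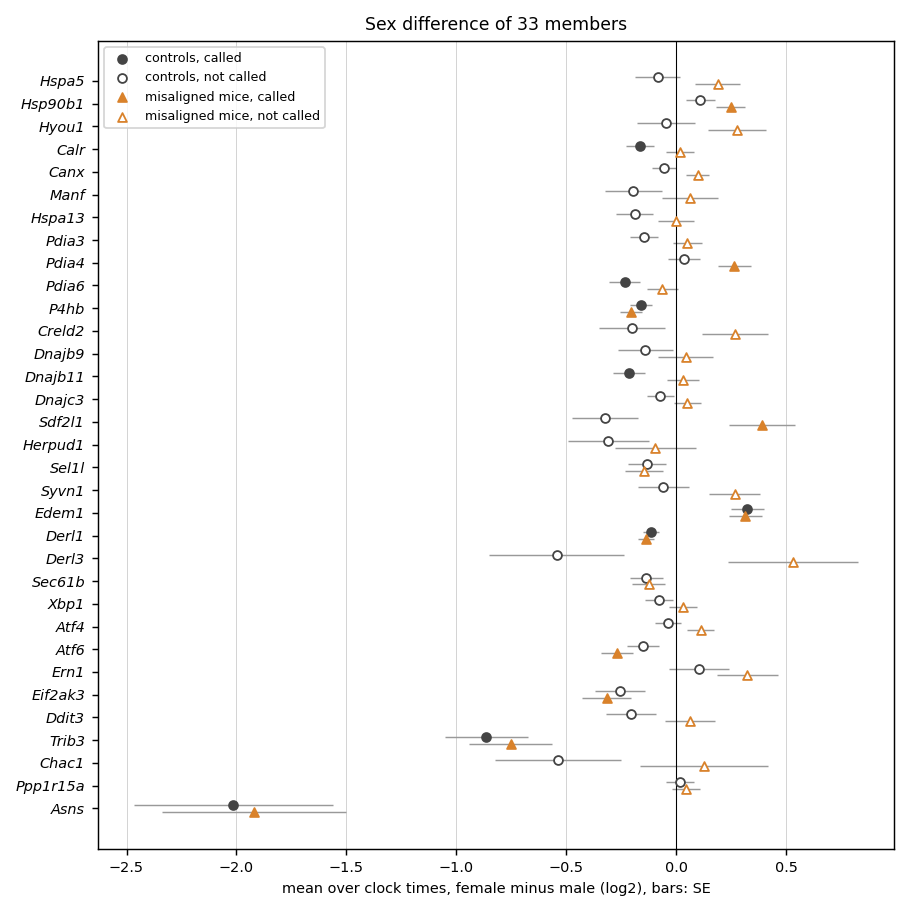
Log2 difference between the sexes (female minus male, mean over the 6 clock times, bars are standard errors) of each of the 33 members in controls (circles) and misaligned mice (triangles), filled where it passed the test. Asns lies at -2.01 in controls and -1.92 in misaligned mice, and Edem1 at 0.32 and 0.31.

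Of the 5 targets of the PERK, ATF4 and CHOP arm, Trib3 alone passed any rhythm test on clock time. Ddit3, the transcription factor CHOP, read 8.98, 6.63 and 9.04 CPM at 0 h and 6.53, 6.43 and 5.76 CPM at 12 h in control males, with an amplitude of 0.24 ± 0.11 (adjusted p = 0.31, edgeR). Another annotated gene of the same name overlaps it on the same strand. Chac1 had 0.30 ± 0.26 and Ppp1r15a, the phosphatase subunit GADD34 that restores translation, 0.15 ± 0.07. Manf is likewise overlapped on the same strand by Rbm15b. Hsp90b1, Hspa13, Pdia4, Syvn1, Atf6 and Eif2ak3 also overlap other annotated genes on the same strand. How the counts used here treat reads in an overlap is not given in the sources used here, so all these members are uncertain in level.

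Within groups, livers that were high for Hspa5 were high for its partners. After each of the 24 group means was removed, Pearson's r with Hspa5 over 72 livers was 0.95 for Hyou1 (Spearman's rho 0.92) and 0.94 for Manf (rho 0.92). It was 0.87 for Dnajb9, 0.87 for Dnajb11 and 0.84 for Creld2, a partner of isomerases. For each of these the permutation p was 1e-05 in both measures, the smallest that 100000 permutations within groups can give, and 32 members were compared. Without the 2 livers farthest from the median of Hspa5, r was 0.94 for Hyou1 and 0.93 for Manf. In each of the 4 sets taken alone, r was 0.92 or more for Hyou1, 0.87 or more for Manf and 0.73 or more for Dnajb11. For Dnajb9 and Creld2 it was only 0.51 and 0.54 in control males, and 0.8 or more in each other set. The median over the other members was 0.51, and over the other 15065 genes tested it was -0.01, with 90% of genes between -0.34 and 0.35. The lowest r was that of Asns, at -0.27, and that of Trib3 was 0.02. The 2 genes of a pair share a library and its scaling.

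Beside the members, 142 other genes of the same compartment and response were listed by role, and 138 of them were tested. In control males 29 of 138 (21% against the 10.8% of all genes) were rhythmic. The change in males passed for 28 (20.3% against 9.23%), of which 26 had a lower amplitude. The share with a lower amplitude among all genes called for that change is not given here. Over all genes tested, too, fewer were rhythmic in misaligned than in control males. By role, beside the same 10.8% of all genes, the count in control males was 5 of 30 for other folding factors, 7 of 22 for other degradation factors and 7 of 23 for translocon and signal peptidase subunits. It was 3 of 21 for other sensors, 4 of 26 for other ATF4 and CHOP targets and 3 of 17 for export from the endoplasmic reticulum. Spcs2, a signal peptidase subunit, had an amplitude of 0.45 ± 0.07 at 22.0 h in control males. Atf5, a transcription factor translated like ATF4, had 0.56 ± 0.08 at 22.8 h in control males. In control females, where Trib3 was the only member called, the amplitude of Atf5 was 0.76 at 23.4 h (adjusted p = 6.1e-09, edgeR). Sec23b, of the coat of export vesicles, had 0.49 ± 0.09, and Cebpg, a partner of ATF4, 0.26 ± 0.05. The sex difference of the rhythm change passed for 3 of 138 (2.17% against 1.73%), Atf5, Spcs2 and the translocon subunit Sec61a1. In control females 18 of 138 were rhythmic, 13% against 12% of all genes and so near the background.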

How the data were processed

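Livers of both sexes, 18 per sex and treatment, were compared by sequencing. The values are read counts per gene, sense to the gene, in whole numbers as deposited by the authors. The authors deposited a MIN and a MAX version, of which MIN was used and MAX was an alternative; how they differ is not given in the sources used here. Alignment was with STAR 2.6.0c to GRCm38, per the submitters' processing notes, and the counting program is not given in the sources used here. Deposited intron counts (1000985 to 1016503 per library) were summed per gene over introns that overlap no exon of the gene. Every column matched 1 sample, and 0 were left over.

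Genes were kept by filterByExpr of edgeR 4.0.16 in R 4.3.3 (15066 of 27846; 8725 for introns) and scaled by TMM. A robust quasi-likelihood fit over all 72 libraries used either a 24 h cosine and sine per sex and treatment (60 residual degrees of freedom) or 1 mean per group (48). P-values were 2-sided and adjusted over all genes tested (Benjamini-Hochberg) and called under 0.05. CPM are TMM-scaled, except those of markers, which use total counts. The molecular time of a liver is the best match of its 14 clock genes to the control curve of its sex, fitted without that liver for controls. Positions and exon lengths are those of GENCODE vM21 on GRCm38.

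The fits were tested on simulated data. Alternatives were other scalings and filters, MAX counts, limma-voom (limma 3.58.1), DESeq2 1.42.0, the older edgeR dispersion, all listed clock genes for molecular time, a replicate block, and leaving out each replicate number or library. Fits on 1 sex alone were added after seeing the data. Replicate numbers did not pair the samples. Per-liver values were to be given for Hspa5, Manf, Xbp1, Atf4, Ddit3 and up to 6 called members with the smallest p per comparison, and up to 4 other pathway genes per comparison were to be named. The members and lists were chosen with earlier results of these data known. Protein sequences were not used here. The plots were made in matplotlib 3.10.9 under Python 3.11.15.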

Additional observations from a re-analysis of the deposited data

Results flagged for a closer look

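The change of the daily rhythm with misalignment differed between females and males for 9 members in gene counts and for 3 of them in intron counts, by a test of that difference over all genes (edgeR quasi-likelihood, Benjamini-Hochberg adjusted). The values here are the amplitude change in females minus that in males, on the log2 scale, and the test also counts a moved peak. In gene counts the value was 0.66 for Manf (adjusted p = 0.00905), 0.60 for Hspa5 (0.0138) and 0.28 for Pdia4 (0.0103). It was 0.60 for Hyou1 (adjusted p = 0.0246), 0.24 for Hsp90b1 (0.0248) and 0.15 for Calr (0.0361). It was 0.11 for Pdia6 (adjusted p = 0.0339), 0.19 for Hspa13 (0.0442) and 0.39 for Eif2ak3 (0.0448). In intron counts it was 0.70 for Hspa5 (adjusted p = 0.0346, edgeR), 0.51 for Pdia4 (0.0355) and 0.45 for Eif2ak3 (0.0270). In control males at 0 h, where the rhythm of these genes peaks, the 3 livers spread more than in other groups, and the values without each library stand with the results above.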

How the results depend on the processing

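For the 113 called results of the members there were 1365 repeats under another setting. Of these repeats, 1083 still passed with no turn of sign, 279 no longer passed but kept their sign, and 3 reversed. Only called results were repeated, so none could become stronger. The amplitude of a single set of livers and the test over clock times have no sign to turn, so these could not reverse. The 3 reversals are in the male rhythm change: without replicate 1 the amplitude difference of Derl1 was -0.041 (range over replicates -0.041 to 0.042) and that of Atf6 0.072 (range -0.19 to 0.072), and without replicate 3 that of Pdia6 was 0.012 (range -0.15 to 0.012). Their cause was not tested. Leaving out a replicate number removes 24 libraries at once, so fewer samples enter.

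Counts of called members that moved by over 1.5 times were these. With total counts they were 2 in control females and 7 in misaligned females, and with a minimum mean of 5 CPM 2 and 6. With no filter they were 1 in misaligned females, 3 for the sex difference of the rhythm change, and in introns 3 in control males and 0 in misaligned females. With limma-voom, 2 were called in introns of misaligned females. With females fitted alone they were 4 in control and 5 in misaligned females. Leaving out replicate numbers 1 to 3 in turn gave 0 to 2 in control females, 6 to 15 in control males, 1 to 2 in misaligned females, 3 to 12 for the male change, 0 to 7 for its test over clock times and 0 to 2 for the sex difference of the change. It gave 3 to 6 and 6 to 8 for the sex means in controls and misaligned mice, 1 to 5 and 2 to 9 on molecular time in misaligned females and males, and in introns 1 to 2 in control males, 0 to 1 in misaligned females and 0 to 2 for the male change. Leaving out single libraries gave 0 to 2 in control females, 14 to 21 in control males, 1 to 4 in misaligned females, 18 to 22 for the male change, 11 to 18 for its test over clock times, 9 to 13 for the sex means in misaligned mice and 4 to 11 for the sex difference of the change. No single library ended 58 called results, at least 1 library ended 28, and the other 27, on molecular time or in introns, were not run without single libraries.

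Replicate numbers did not pair the samples: the median correlation of deviations was -0.01 for same-numbered livers over 828 pairs and -0.00 for others, and 24 of 72 libraries correlated best with their own number. With a replicate block, 20 members were rhythmic in control males, 20 changed in males and 10 differed between the sexes. At 3 to 48 counts for Derl3 and 0 to 98 for Asns, depth limits these genes most.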
